A study of Schizosaccharomyces pombe with 4 samples.

Results

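The fission yeast *Schizosaccharomyces pombe* has a compact genome in which many neighbouring genes point towards each other, and the transcribed regions of such convergent genes often run into one another. Pairs of protein-coding genes of this kind were found on chromosomes I, II and III by the positions that the authors' table gives (ASM294v2). A pair was kept when one gene lay on the + strand and the other on the − strand, when both shared at least 50 nt, and when the 3′ end but not the 5′ end of each gene lay inside its partner. This gave 627 pairs, which hold 1252 genes of the 5118 protein-coding genes on these chromosomes (24.5%). The rule used no expression value. Most pairs, 605 of 627, were direct neighbours in order of start, and 2 genes were part of more than 1 pair. Chromosome I held 291 pairs, chromosome II 233 and chromosome III 103.

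Total RNA was sequenced from 2 biological replicates of strain YAM2394 (WT), a haploid of mating type h+ whose markers are the alleles ade6-M210 and leu1-32 together with ura4-D18, and 2 of strain YAM2397, which carries these markers and exo2Δ::kanMX4. Cultures were collected in mid-log phase, in YES medium at 32°C, after which rRNA was depleted and stranded libraries were made. Each value is a density, in tag/nt, that the authors normalized on sn(o)RNA levels. A density from a culture does not separate fewer cells that express a gene from less RNA per cell.

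In the cell, transcription of a protein-coding gene ends when the nascent RNA is cleaved and polyadenylated at its 3′ end and RNA polymerase II is then released further downstream. When convergent genes overlap, each gene is transcribed through the 3′ part of its neighbour, and the 3′ regions of both mRNAs are complementary to each other. Exo2, the fission yeast Xrn1, is the cytoplasmic 5′-3′ exonuclease that degrades decapped mRNAs and many antisense noncoding RNAs, among them those named XUTs (Xrn1-sensitive unstable transcripts).

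The libraries held between 46964618 and 51019820 reads on annotated features, of which between 22807570 and 25096475 fell on protein-coding genes. On the sn(o)RNA scale, the *exo2* gene was not lower in the libraries labelled exo2Δ. Its density was 0.663 and 0.636 tag/nt in these, against 0.488 and 0.458 in WT (log2 ratio 0.46, SE 0.09, adjusted p = 0.00167 by limma with Benjamini-Hochberg adjustment). Relative to the median mRNA its log2 ratio was −0.62 (adjusted p = 0.00205), so that its direction depends on the scaling. Its presence does not: the gene held 2426 and 2382 reads in the exo2Δ libraries against 2485 and 2181 in WT. Over its coding exons the density was 0.585 and 0.577 tag/nt against 0.553 and 0.520. Why reads remain on a gene that the strain description gives as deleted was not tested. The name exo2Δ stands here for the libraries that carry this label. Over all features, 61.5% rose, and the scaling set how many: scaling on the median of ratios over protein-coding genes shifted every log2 ratio by −1.08. Ratios are given on the sn(o)RNA scale, and where they are called relative to the median mRNA they are on the latter scale.

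The overlaps were mostly short, with a long tail. The median overlap was 200 nt (quartiles 98 and 1049.5 nt), and the longest was 7816 nt. In 302 pairs the overlap held no coding exon of either partner, in 228 pairs it held coding sequence of one partner only, and in 97 pairs of both. Coding exons of the partners themselves rarely overlapped each other, in 10 of 627 pairs, and at most by 104 nt (*srr1* and *pol5*). In 616 pairs the 2 stop codons were apart, at a median distance of 321 nt over all pairs (quartiles 207 and 499.5 nt). Long overlaps were thus laid out as long annotated 3′ untranslated regions that ran back over the coding part of the partner. The median 3′ untranslated length was 196.5 nt among genes of the pairs with less than 100 nt of overlap and 1017 nt among those with 1000 nt or more, whereas the distance between stop codons was 351 nt in the former pairs and 211.5 nt in the latter.

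**Figure D1:**
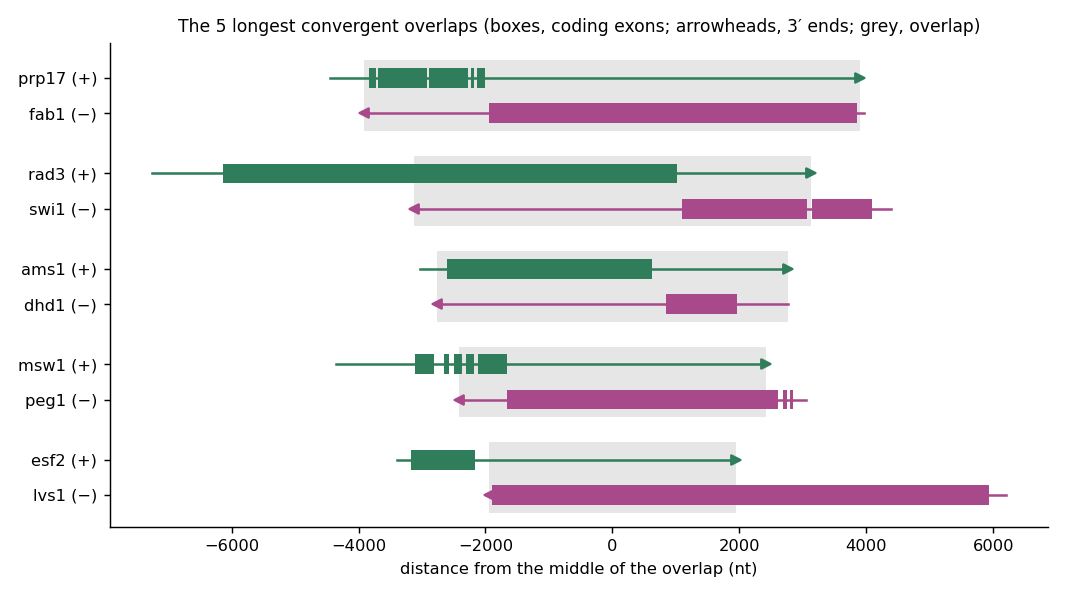
Map of the 5 pairs with the longest overlap, as distance from the middle of the overlap in nt; boxes are coding exons, thin lines the rest of the annotated gene (introns included), arrowheads 3′ ends, and grey areas the overlap. The coding parts of *prp17* and *fab1*, which overlap by 7816 nt, lie side by side, and each gene's 3′ part runs over the coding part of its partner.

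The last 30 bases before the 3′ end are given here for the 3 longest and the 3 shortest overlaps, since these ends define the pairs. They were read from the RefSeq annotation of assembly ASM294v3 at its own coordinates, 5′ to 3′ on the strand of each gene. Capitals mark the polyadenylation signal hexamer AATAAA or either of its variants, of which the first is AATGAA and the other is ATTAAA.
prp17: gATTAAAattatctccggaaattattggtt
fab1: cgtatggtaatggtttaaggaagattaagc
rad3: tggaaaaaaaaatttaaacaaacatcgtgt
swi1: gccttaaggctaaagcacgctgaatccaga
ams1: atacttttatttacagataatattaattat
dhd1: ttgaaaacgtttggtaggaacggaacgtgg
uaf2: taaacttgatctttgtacaactgtactcat
SPAP8A3.07c: atcaagtttattagtaaacAATAAAagaat
mrpl7: aaacaaactgaacatgtaaaatagtatttt
byr2: cagtttgtttaaaaaatatccattgattat
vac7: gttctattattcggggctcagtaaaatgta
dpb2: ataatagaacgtttatgttaATTAAAagat

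Of these 12 ends, 3 held a hexamer: *prp17*, SPAP8A3.07c and *dpb2*. Over the 1252 genes of the pairs, AATAAA stood in the last 30 bases of 153 (12.2%), against 10.1% of all 5113 protein-coding genes of this annotation. AATGAA stood in 5.67% of the members and 4.62% of all genes, and ATTAAA in 6.63% and 5.75%. Any of these stood in 22.6% of the members, 19.3% of all genes and 18.2% of the genes in no pair. The same windows read on the opposite strand held the complement of the first hexamer, TTTATT, in 4.95% of the members and 6.61% of all genes. Among the genes of pairs with less than 100 nt of overlap 24.8% held a hexamer, and among those with 1000 nt or more 21.3%. The median share of A and T in the window was 71.7% in the members and 73.3% over all genes. These counts describe letters in a short window and not the use of a site. The annotation also sets the pairs: in ASM294v3, 594 of the 627 pairs still met the rule, 593 of them with an overlap of the same length, and 33 did not, among them *ams1* and *dhd1*, since *dhd1* lies wholly inside *ams1* there.

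The median density over genes of the pairs was 0.768 and 0.815 tag/nt in the libraries labelled exo2Δ, against 0.358 and 0.380 in WT. Over all 5068 protein-coding genes tested it was 0.935 and 0.987 tag/nt in exo2Δ, against 0.431 and 0.443 in WT. In each library the members were therefore somewhat below the whole set, while their lower quartile in WT, 0.178 tag/nt, lay next to that of all genes, 0.181 tag/nt, and their upper quartile was lower, 0.869 against 1.14 tag/nt. Of the 1252 members 1251 passed the filter of 10 reads over the 4 libraries. SPBPB21E7.10 did not, with no read in WT and 2 reads in each exo2Δ library.

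The level of a pair was lower the longer its overlap was. The pairs were split into classes of overlap that begin at 50, 100, 200, 500 and 1000 nt and hold 161, 152, 89, 61 and 164 pairs. In this order, the median WT density was 0.509, 0.464, 0.424, 0.292 and 0.239 tag/nt. This order was kept in the exo2Δ libraries, in which the medians were 1.19, 1.05, 0.945, 0.670 and 0.512 tag/nt. Across 626 pairs with both partners tested, log2 overlap length and the mean log2 level of the partners had a Pearson's r of −0.39 and a Spearman's coefficient of −0.37. Both partners contributed alike, with a Spearman's coefficient of −0.25 for the gene on the + strand and −0.29 for that on the − strand. These pairs share the same 4 libraries, so that the coefficients are descriptions. Within the overlaps under 1000 nt alone, Spearman's coefficient was weaker, −0.17, over a narrower range of overlap. The WT class medians given above fell from 0.509 to 0.292 tag/nt within that range.

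A density divides reads by the annotated length, and genes with long overlaps were longer. The median length was 1778 nt in the shortest class and 2719 nt in the longest, and Spearman's coefficient of overlap with mean length was 0.41. That of mean length with the level of the pair was −0.25. The median coding length hardly differed, with 1185 nt in the shortest class and 1170 nt in the longest. When the level was taken from the coding exons alone, the medians were 0.831 tag/nt in the shortest class and 0.458 tag/nt in the longest, and Spearman's coefficient with overlap length was −0.25. The order of the classes thus stayed, with a smaller spread. The part of gene length, or of 3′ ends annotated too far, in the rest was not tested. Long annotated 3′ untranslated regions lay in *prp17* (5911 nt) and *esf2* (4119 nt), which are among the longest overlaps. In WT replicate 1, *prp17* had 0.169 tag/nt over the whole gene and 0.80 over coding exons, and *esf2* 0.0529 and 0.255. For their partners these values were 0.321 and 0.419 (*fab1*), and 0.534 and 0.544 (*lvs1*).

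**Figure D2:**
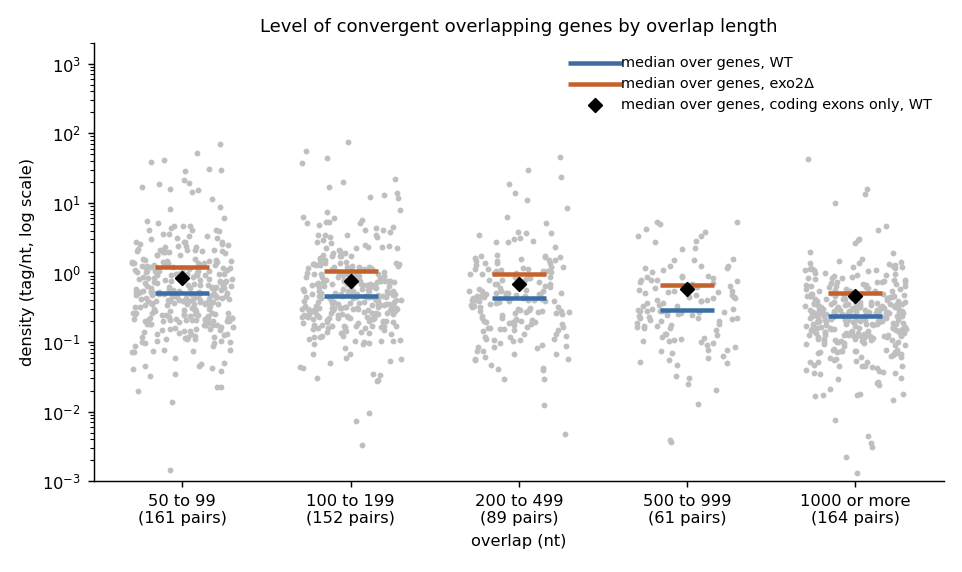
Density in tag/nt (log scale) of genes in convergent overlapping pairs by overlap length in nt; grey points are single genes (mean of both WT replicates), blue and orange bars the medians over genes in WT and exo2Δ, and diamonds the WT medians over coding exons only. WT medians go from 0.509 tag/nt in the shortest class to 0.239 tag/nt in the longest.

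Partners were not matched in level. In WT, the log2 densities of the gene on the + strand and of that on the − strand had a Pearson's r of −0.01 and a Spearman's coefficient of 0.002 across pairs. For 672 convergent pairs that overlap by less than 50 nt or not at all, Pearson's r was 0.11 and Spearman's coefficient −0.001. These were 0.16 and 0.08 for 1132 divergent pairs, 0.08 and 0.04 for 2285 pairs on a single strand, and −0.02 and −0.06 for 328 neighbours on opposite strands that overlap otherwise by at least 50 nt. The median gap between partners was 1.74 on the log2 scale, and in these other classes 2.38, 1.97, 2.07 and 2.04. In 66 pairs a gene was covered by its partner over at least 90% of its length. In 25 of these the partners differed by more than 4-fold in WT, in 11 of which the covered gene was the lower one, and the largest difference was 257-fold. Whether some reads were counted on the wrong strand was not tested.

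The question that the strains address is which transcripts are held down by Exo2. Nearly all members were higher in the libraries labelled exo2Δ, as were nearly all mRNAs. Both exo2Δ libraries were above both WT libraries for 1179 of 1251 members (94.2%; 91.1% of all protein-coding genes tested) and below both for 40 (3.20%; 5.45% of all). With a ratio above 2 and an adjusted p under 0.05 by limma with Benjamini-Hochberg adjustment, 698 members rose (55.8%), against 54.8% of all protein-coding genes. The shares of the members and of all genes are close. No member fell below a ratio of 0.5, where 0.276% of all genes did. At an unadjusted p under 0.05, no member had a log2 ratio under −1 either, 28 members had one under 0, and 27 of these passed the adjusted threshold without reaching a 2-fold change. The median log2 ratio was 1.10 over the members (quartiles 0.70 and 1.44), and 1.08 over all genes (quartiles 0.65 and 1.49). Replicate by replicate, the members' median was 1.09 in both pairs of libraries.

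Relative to the median mRNA, 48 members rose (3.84%; 6.57% of all genes) and 62 fell (4.96%; 8.03% of all). Members thus moved away from the median mRNA in lower shares than all genes did, in both directions. The difference was not tested, because genes are not replicates of a condition. A higher WT level went with a lower log2 ratio, with a Spearman's coefficient of −0.37 across the 1251 members and −0.44 across all 5068 genes.

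Overlap length hardly went together with the exo2Δ/WT ratio. From the shortest to the longest class, the median log2 ratio was 1.13, 1.00, 1.13, 1.15 and 1.10. In the same order, 179 of 322, 152 of 304, 105 of 178, 73 of 121 and 190 of 328 genes rose, the lowest share being that of the class from 100 nt and the highest that of the class from 500 nt (60.3%). Spearman's coefficient between overlap length and the mean log2 ratio of the partners was 0.02 across pairs. Whether the overlap held coding exons also made little difference, with a median of 1.12 where it held none, 1.10 where it held those of a single partner and 1.05 where it held those of both. The chromosomes were close as well, with medians of 1.08, 1.11 and 1.14 on I, II and III.

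XUTs lay antisense to 223 members over at least 50 nt (17.8%; 21.2% of all protein-coding genes). Of the 222 that were tested 129 rose (58.1%), against 55.3% of the other members. Their median WT density was lower, 0.264 against 0.402 tag/nt, and their median log2 ratio was 1.16 against 1.09. A further overlap concerns the reads themselves, since 50 members shared their strand and at least 1 nt with a XUT. How the reads on such shared stretches were assigned is not given in the sources used here.

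The ratios of partners went together only weakly. The log2 exo2Δ/WT ratios of the genes on the + and on the − strand had a Pearson's r of 0.07 and a Spearman's coefficient of 0.04 across pairs. These coefficients were 0.26 and 0.13 for the convergent neighbours with less or no overlap, 0.27 and 0.10 for divergent, 0.21 and 0.12 for single-strand neighbours, and 0.18 and 0.16 for those that overlap otherwise. Both partners rose in 200 pairs (31.9%), a single partner in 298 and neither in 128. Both rose in 32.1% of the convergent neighbours with less or no overlap, in 31.7% of the divergent ones, in 30.6% of those on a single strand and in 34.8% of the neighbours that overlap otherwise.

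**Figure D3:**
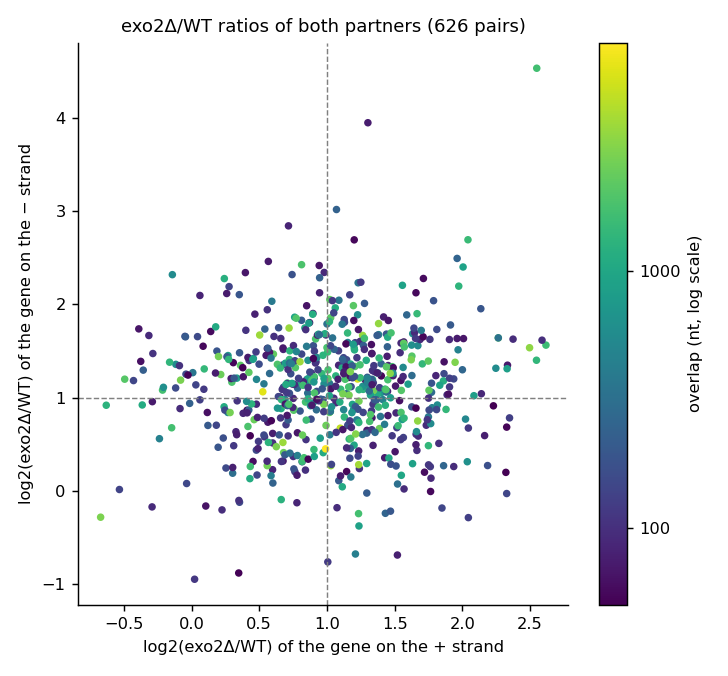
log2 exo2Δ/WT ratio of the gene on the − strand against that of the gene on the + strand for 626 pairs, coloured by overlap length in nt; dashed lines mark a ratio of 2. The points form a round cloud (Spearman's coefficient 0.04) and long and short overlaps are spread over all of it.

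The ratio of a gene to its partner within a library does not depend on the scaling of that library. It was compared between WT and exo2Δ with limma over all 5043 neighbouring pairs with both genes tested. The partner ratio changed in 411 of 626 convergent overlapping pairs (65.7%), against 69.6% of all neighbouring pairs, and by more than 1 on the log2 scale in 127 (20.3%; 25.7% of all). Changed partner ratios were thus the usual case for neighbours of any kind. The gene that was lower in WT by whole-gene density gained on its partner in 275 of the 411 pairs (66.9%) and lost in 136. This share was between 68.0% and 70.5% in the other classes of neighbours. Across the 626 pairs the change had a Spearman's coefficient of −0.39 with the gap between the partners in WT. The WT values enter both measures, and their part in this coefficient was not tested. From the shortest to the longest class of overlap, the median size of the change was 0.52, 0.52, 0.58, 0.49 and 0.46.

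**Figure D4:**
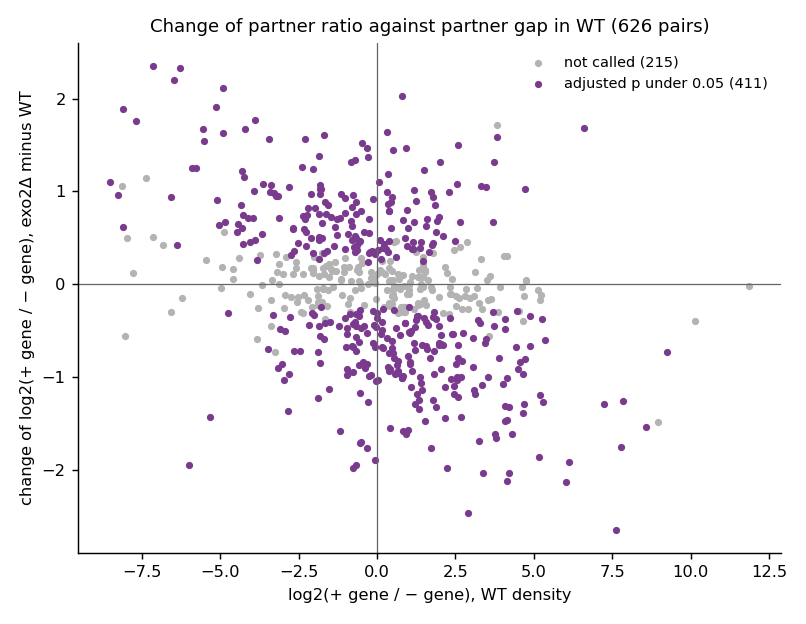
Change of the log2 ratio of the + gene to the − gene, exo2Δ minus WT, against that log2 ratio in WT, for 626 pairs; purple points passed an adjusted p under 0.05 (411 pairs) and grey points did not (215 pairs). In 275 of the 411 pairs in purple (66.9%) the gene lower in WT gained on its partner, and in the other classes of neighbours this share was between 68.0% and 70.5%.

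The 6 largest changes of partner ratio were named by rule, among pairs with at least 50 reads per library on average for both partners. In each of them the lower partner rose in the exo2Δ libraries, and the higher one rose by a smaller factor or did not rise. The largest was that of *mpc1*, a subunit of the mitochondrial pyruvate carrier, and *mug146*, a gene named for its induction in meiosis, which overlap by 75 nt. Density of *mug146* was 0.222 and 0.199 tag/nt in exo2Δ against 0.0117 and 0.0156 in WT (log2 ratio 3.95, SE 0.22, adjusted p = 6.29e-06). Density of *mpc1* was 6.55 and 6.79 tag/nt in exo2Δ against 2.65 and 2.76 in WT (log2 ratio 1.30, SE 0.06). Both genes were higher in both exo2Δ libraries, and *mpc1* stood 224 and 175 times above *mug146* in WT and 29.5 and 34.1 times in exo2Δ. The change was −2.65 on the log2 scale (SE 0.24, adjusted p = 1.52e-05). *mug146* rested on 16 and 20 reads in WT.

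The genes *mvd1*, for an enzyme of the mevalonate pathway, and *cox8*, for a subunit of cytochrome c oxidase, overlap by 558 nt, which cover 88.3% of *cox8*. The density of *cox8* was 1.48 and 1.42 tag/nt in exo2Δ against 0.270 and 0.314 in WT, and that of *mvd1* was 1.96 and 2.00 tag/nt in exo2Δ against 2.22 and 2.16 in WT. WT and exo2Δ libraries did not overlap for either gene, *cox8* being higher (log2 ratio 2.32, SE 0.10, adjusted p = 2.83e-06) and *mvd1* slightly lower (−0.14, SE 0.06, adjusted p = 0.0677) in exo2Δ. The partner ratio changed by −2.46 on the log2 scale (SE 0.13, adjusted p = 7.68e-07), from 8.22 and 6.86 in WT to 1.32 and 1.41. Over coding exons alone, *cox8* had 13.2 and 12.7 tag/nt in exo2Δ against 2.39 and 2.58 in WT. *mvd1* had 3.4 tag/nt in both exo2Δ libraries against 3.8 and 3.7 in WT by that measure. There *cox8* was below *mvd1* in WT and above it in exo2Δ.

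In the pair of SPBC23G7.14 and *rpp202*, for an acidic ribosomal P2 protein, 143 nt overlap. SPBC23G7.14 had a density of 1.49 and 1.66 tag/nt in exo2Δ against 0.312 and 0.315 in WT. *rpp202* had 39.4 and 48.7 tag/nt in exo2Δ against 44.2 and 45.0 in WT, so that its groups overlapped. The partner ratio changed by 2.35 on the log2 scale (SE 0.09, adjusted p = 2.25e-07). The pair of *ptf2* and *rps3*, for a protein of the small ribosomal subunit, was alike, with 1.01 and 1.13 tag/nt of *ptf2* in exo2Δ against 0.263 and 0.256 in WT, beside 15.7 and 17.5 tag/nt of *rps3* in exo2Δ against 19.7 and 20.8 in WT. There the change was 2.33 (SE 0.10, adjusted p = 3.11e-07).

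The other 2 pairs paired genes of central metabolism with partners of much lower density. *pfk1*, for phosphofructokinase, had 11.9 and 11.3 tag/nt in exo2Δ against 19.7 and 17.6 in WT, while *uba2*, for a subunit of the SUMO-activating enzyme, had 0.562 and 0.640 tag/nt in exo2Δ against 0.210 and 0.208 in WT. *uba2* was higher and *pfk1* lower in both exo2Δ libraries than in either WT library, and the partner ratio changed by 2.21 (SE 0.12, adjusted p = 7.08e-07). *ipp1*, for inorganic pyrophosphatase, had 16.0 tag/nt in both exo2Δ libraries against 20.4 and 21.6 in WT, while SPAC23C11.06c had 1.09 and 1.05 tag/nt in exo2Δ against 0.332 and 0.310 in WT. This change was −2.13 (SE 0.10, adjusted p = 3.98e-07).

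**Figure D5:**
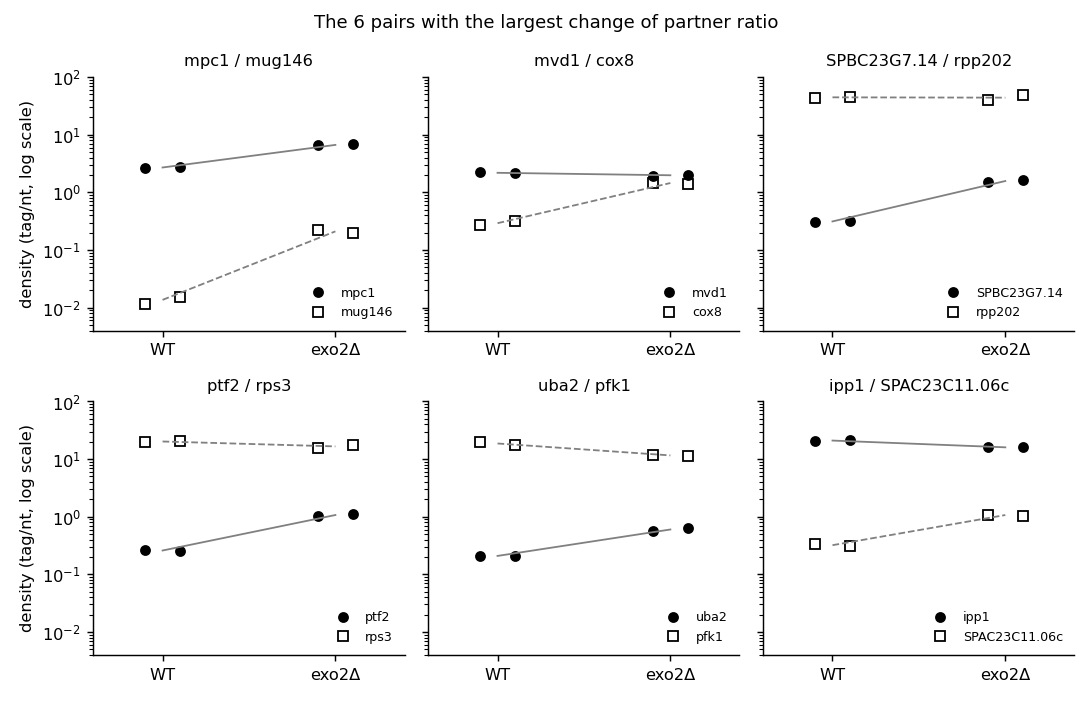
Density in tag/nt (log scale) of both genes in each of the 6 pairs with the largest change of partner ratio; filled circles are the + gene and open squares the − gene in each of 2 WT and 2 exo2Δ libraries, and lines join the means. In every panel the lower gene in WT comes closer to its partner in exo2Δ by this whole-gene density, as for *cox8*, which goes from 0.270 and 0.314 to 1.48 and 1.42 tag/nt beside *mvd1*. Over coding exons alone, which are not drawn, *cox8* passes *mvd1* in exo2Δ.

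The longest overlaps follow. The genes *prp17*, for a splicing factor, and *fab1*, for a phosphatidylinositol-3-phosphate 5-kinase, overlap over 93.6% and 99.2% of their lengths (*prp17* II:2651044-2659395, + strand; *fab1* II:2651580-2659459, − strand; ASM294v2). Density of *prp17* was 0.317 and 0.340 tag/nt in exo2Δ against 0.169 and 0.162 in WT (log2 ratio 0.99, SE 0.11, adjusted p = 1.08e-04), and that of *fab1* was 0.449 and 0.411 tag/nt in exo2Δ against 0.321 and 0.307 in WT (log2 ratio 0.45, SE 0.10, adjusted p = 0.00342). Both were higher in both exo2Δ libraries, by less than 2-fold. The partner ratio was 0.526 in both WT libraries and 0.705 and 0.827 in exo2Δ, a change of 0.54 on the log2 scale (SE 0.10, adjusted p = 8.54e-04). These densities divide by the whole annotated gene, of which 5911 nt are 3′ untranslated in *prp17*. Over coding exons alone the order in WT was reversed, with 0.80 and 0.78 tag/nt for *prp17* and 0.42 and 0.40 for *fab1*.

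The pair of *rad3*, for the ATR checkpoint kinase, and *swi1*, for a subunit of the replication fork protection complex, has 6260 nt in common. *rad3* had 0.350 and 0.325 tag/nt in exo2Δ against 0.237 and 0.231 in WT, and *swi1* had 0.0905 and 0.0985 tag/nt in exo2Δ against 0.0446 and 0.0455 in WT. Both were higher in exo2Δ, *swi1* more so (log2 ratio 1.06, SE 0.18, against 0.53, SE 0.10), and the partner ratio changed by −0.54 (SE 0.12, adjusted p = 0.00373), a call that was lost without exo2Δ replicate 2 (−0.42). A XUT antisense to *rad3*, XUT0231, shares its strand with *swi1*, as XUTs do with *dhd1*, *msw1* and *esf2* in the pairs that follow.

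The α-mannosidase gene *ams1* and *dhd1* share 5533 nt. *ams1* had 0.602 and 0.589 tag/nt in exo2Δ against 0.266 and 0.244 in WT, and *dhd1* had 0.279 and 0.290 tag/nt in exo2Δ against 0.117 and 0.131 in WT. Both rose by nearly the same factor (log2 ratios 1.23 and 1.20), and the partner ratio changed by 0.02 (SE 0.12, adjusted p = 0.862), a change whose sign turned without WT replicate 2 (−0.12) or exo2Δ replicate 1 (−0.02). For *msw1*, for a mitochondrial tryptophanyl-tRNA synthetase, and *peg1*, for a CLASP protein of microtubules, the partner ratio went from 0.645 and 0.644 in WT to 0.843 and 0.888 (change 0.42, SE 0.08, adjusted p = 0.00158). For *esf2* and *lvs1*, which share 3899 nt, it went from 0.0994 and 0.127 to 0.212 and 0.222 (change 0.95, SE 0.14, adjusted p = 2.55e-04). Over coding exons alone, *msw1* was the higher in WT, with 0.92 and 0.95 tag/nt against 0.28 and 0.30 for *peg1*. By that measure *ams1*, with 0.40 and 0.38 tag/nt, was somewhat below *dhd1*, with 0.42 and 0.47. In the pairs of *prp17*, *msw1* and *ams1*, which partner was the higher thus depended on the part of the gene that was counted. In the other long overlaps the order stayed. Over coding exons in WT, *rad3* had 0.295 and 0.288 tag/nt against 0.102 in both replicates for *swi1*. By that measure *esf2* had 0.255 and 0.301 tag/nt against 0.544 and 0.502 for *lvs1*.

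Just inside the limit of 50 nt were 3 pairs. *uaf2*, for the small subunit of the splicing factor U2AF, had 2.98 and 3.49 tag/nt in exo2Δ against 0.602 and 0.692 in WT, and its partner SPAP8A3.07c had 21.9 and 22.6 tag/nt in exo2Δ against 19.6 and 19.1 in WT. *uaf2* rose (log2 ratio 2.32, SE 0.11, adjusted p = 3.32e-06) and SPAP8A3.07c was higher by 0.20 on the log2 scale (SE 0.06), so that the partner ratio changed by 2.12 (SE 0.11, adjusted p = 6.87e-07). *mrpl7*, for a mitochondrial ribosomal protein, had 2.64 and 2.82 tag/nt in exo2Δ against 0.585 and 0.579 in WT. Its partner *byr2*, for a kinase of the mating pathway, had 0.287 and 0.264 tag/nt in exo2Δ against 0.148 and 0.144 in WT. Here the higher partner gained, and the partner ratio went from 3.96 and 4.01 to 9.21 and 10.7 (change 1.32, SE 0.12, adjusted p = 1.43e-05). For *vac7* and *dpb2*, for a subunit of DNA polymerase ε, it went from 0.487 and 0.511 to 0.882 and 0.818 (change 0.77, SE 0.11, adjusted p = 1.78e-04). Just outside the limit were *new14* and *rps1701* (49 nt), *pyp2* and *emc10* (48 nt), and *ssc1* and *sdh6* (48 nt). No read fell on *new14*, and the log2 ratios of the other genes were 0.38 for *rps1701*, 1.62 for *pyp2*, 1.09 for *emc10*, −0.01 for *ssc1* and 0.72 for *sdh6*.

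The pairs with the most highly expressed lower partner follow. By the WT density of the lower partner, the first was SPAC56E4.03 with *cut6*, for acetyl-CoA carboxylase. *cut6* had 8.63 and 8.61 tag/nt in exo2Δ against 7.98 and 6.99 in WT, and SPAC56E4.03 had 11.2 and 10.2 tag/nt in exo2Δ against 6.58 and 6.02 in WT. The next was *lys12*, for an enzyme of lysine synthesis, with *rpe1*, of the pentose phosphate pathway. *lys12* had 11.5 and 11.8 tag/nt in exo2Δ against 17.3 and 16.3 in WT, whereas *rpe1* had 4.08 and 4.13 tag/nt in exo2Δ against 3.94 and 4.18 in WT, with groups that overlapped. In the pair of *ifa38*, for an enzyme of fatty acid elongation, and *rpl901*, for a ribosomal protein, the log2 ratios were 0.10 and −0.16. Relative to the median mRNA, these 6 genes had log2 ratios between −0.31 and −1.61.

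In other pairs both partners rose by a large factor. *mrpl24*, for a mitochondrial ribosomal protein, had 0.644 and 0.712 tag/nt in exo2Δ against 0.160 and 0.168 in WT, and its partner SPBC14C8.11c, which it overlaps by 1531 nt, had 0.373 and 0.411 tag/nt in exo2Δ against 0.0522 and 0.0699 in WT. The log2 ratios were 2.04 (SE 0.10) and 2.69 (SE 0.17). *cti1* and SPCC1739.08c rose with log2 ratios of 2.01 and 2.40. In the latter pair the change of the partner ratio did not pass the threshold (−0.40, SE 0.18, adjusted p = 0.0730), and passed it without WT replicate 1 (−0.45).

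Of all members, *grt1*, for a putative transcription factor, rose most. Its density was 0.195 and 0.169 tag/nt in exo2Δ against 0.00767 and 0.00772 in WT (log2 ratio 4.53, SE 0.23, adjusted p = 4.52e-06), where it rested on 35 and 33 reads. Its partner *fah1*, with 12 and 9 reads in WT, also rose, with a log2 ratio of 2.55 (SE 0.46). After *mug146* came *aar2*, for an assembly factor of the U5 snRNP, with 1.50 and 1.66 tag/nt in exo2Δ against 0.189 and 0.200 in WT, and *hfi1*, for a subunit of the SAGA complex, with 1.44 and 1.51 tag/nt in exo2Δ against 0.201 and 0.210 in WT. Their partners had lower ratios: *pol1*, for the catalytic subunit of DNA polymerase α, had a log2 ratio of 1.07 and SPBC887.17 one of 0.72. SPBC14C8.11c, given above, was the fifth.

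The members with the lowest log2 ratios were abundant genes, 4 of the 5 for proteins of translation or a fusion with one. *rpp102*, for an acidic ribosomal P1 protein, had 18.7 and 19.6 tag/nt in exo2Δ against 36.9 and 36.8 in WT (log2 ratio −0.94, SE 0.06, adjusted p = 9e-06). *tef101*, for the elongation factor eEF1A, had 29.6 and 26.4 tag/nt in exo2Δ against 53.5 and 49.4 in WT (log2 ratio −0.88, SE 0.08, adjusted p = 4.33e-05), though genes for this factor have near-identical copies, so that its reads are uncertain. *ubi5*, for a fusion of ubiquitin with a ribosomal protein, and *rpl1702* had log2 ratios of −0.76 and −0.67, and *pfk1* had −0.69. Whether genes other than *tef101* have copies of this kind was not checked. None of these 5 reached a 2-fold change on the sn(o)RNA scale, and relative to the median mRNA they stood between −1.75 and −2.02. On the sn(o)RNA scale their partners were not lower: *trs23* had a log2 ratio of 0.02, *efr3* of 0.35, *csr101* of 1.01, *uba2* of 1.52 and *coy1* of 1.21. Relative to the median mRNA, *trs23* stood at −1.05 and *efr3* at −0.73, both lower. On that scale *csr101* stood at −0.07, *uba2* at 0.44 and *coy1* at 0.13.

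Coding exons inside the overlap were set beside exons of the same gene outside it, for the 55 members with at least 100 nt of exon in both. The WT density inside was lower by a median of 0.32 on the log2 scale, and higher in 15 of the 55. The log2 exo2Δ/WT ratio was higher inside in 49 of 55, with a median difference of 0.25 (quartiles 0.12 and 0.45). The overlap lies at the 3′ end, and the last coding exon was therefore set beside the others. The ratio was higher in the last exon in 85.7% of 1111 other genes (median difference 0.16) and in 88.4% of 472 members (median difference 0.18). The WT density of the last exon was lower by a median of 0.34 on the log2 scale in the other genes and 0.40 in the members. It was higher in 35.2% and 30.3% of these, so that genes in no pair showed a similar drop. This reference was chosen after the first values were seen, and the part of the overlap in these differences was not tested.

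Of 18 factors of 3′ end cleavage, polyadenylation and termination, 6 rose, the log2 ratios of all 18 were above 0, and none of them was 2-fold above or below the median mRNA (median log2 ratio 0.72 over the list, 1.08 over all genes, of which 54.8% rose and 91.1% were higher in both exo2Δ libraries than in both WT libraries). The highest was *ppn1*, of the cleavage and polyadenylation machinery, with 0.128 and 0.150 tag/nt in exo2Δ against 0.0455 and 0.0471 in WT (log2 ratio 1.57). *ppn1* was a member of a convergent overlapping pair, as were *pcf11*, a cleavage factor (log2 ratio 1.12), and *dhp1*, the nuclear 5′-3′ exonuclease of termination (log2 ratio 0.44). Of 9 genes of RNA interference, which can act on complementary RNAs, 5 rose, beside 54.8% of all protein-coding genes, and the log2 ratios of all 9 were above 0 (median 1.05). Of these *dcr1*, for Dicer, and *hrr1*, for an RNA helicase, were members, with log2 ratios of 1.05 and 0.97.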

How the data were processed

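The density in tag/nt is a signal that the authors deposited for each replicate: paired 50-nt reads of stranded, rRNA-depleted total RNA, mapped with TopHat on ASM294v2, were summed per feature, divided by its length and normalized on sn(o)RNA levels. The counting tool is not given in the sources used here. Sums of replicates were not used. In each library, 100% of nonzero densities multiplied by length were whole multiples of a step (within 0.01), which gave reads per feature for the filter and depth. These cover counting error only. Features with at least 10 reads over the 4 libraries (8826 of 9139) were fitted as log2(density + 1.55e-04) with limma 3.58.1 (R 4.3.3, moderated variances that follow the mean) and Benjamini-Hochberg adjustment over all of them. Folds of low genes are therefore understated. A rise is a log2 ratio above 1, and a fall one under −1, at an adjusted p under 0.05. A fit of + to − gene log2 ratios over all neighbouring pairs was called at an adjusted p under 0.05. Both fits were also run on simulated libraries, drawn independently and with few changed features. Most features rose here and same-numbered libraries deviated together, so that the simulation does not measure the error of the calls above. With 2 libraries per group no exact permutation test of a single gene can pass 0.05, and p-values measure the spread between these libraries.

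Pairs named were the 5 longest and 3 shortest overlaps, the 3 just outside the limit, the 6 largest changes of partner ratio, the 3 highest by the lower partner and the 3 with the highest log2 ratio of the lower-ratio partner, of which 1 is not reported here. Genes named were the 5 largest rises and 5 largest falls with at least 50 reads on average and groups that do not overlap. Partners of these genes, and pairs with overlapping coding exons, were named after their values were seen. Members, lists and rules were chosen with earlier results of these data known. Symbols came from RefSeq (ASM294v3; 1252 of 1252 members matched, 1066 with a symbol).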

Additional observations from a re-analysis of the deposited data

How the results depend on the processing

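The scaling decided the number of calls. With reads scaled on total reads, 274 members rose and 8 fell, and 35 rose and 89 fell when the median of ratios was taken over every feature; the median log2 ratio was then 0.61 and −0.10, and 1.17 with the sum of sn(o)RNA reads. The median of ratios reversed the log2 ratio of *prp17* (−0.21), *fab1* (−0.75), *rad3* (−0.68), *swi1* (−0.14), *dhd1* (−0.0027), *msw1* (−0.11), *peg1* (−0.53), *lvs1* (−0.92), SPAP8A3.07c (−1.004), *byr2* (−0.29), *dpb2* (−0.32), SPAC56E4.03 (−0.44), *cut6* (−0.998), *rpe1* (−1.19), *ifa38* (−1.10), *rps1701* (−0.83), *emc10* (−0.12) and *sdh6* (−0.48). Total reads reversed *fab1* (−0.0404), *lvs1* (−0.21), SPAP8A3.07c (−0.29), *cut6* (−0.29), *rpe1* (−0.48), *ifa38* (−0.39) and *rps1701* (−0.12), and the sum of sn(o)RNA reads *rpp202* (0.0465) and *ssc1* (0.0639). The change of each log2 ratio by the scaling is a constant shift. With overlaps of at least 200 nt only, which keeps fewer genes, 368 members rose, 20 rose and 25 fell relative to the median mRNA, and 194 partner ratios changed. Then the median log2 ratio was 1.12, Spearman's coefficient of partner levels −0.0833, of partner ratios 0.0705, of overlap with level −0.355 and of overlap with ratio −0.0282. From 1 nt on, the median was 1.09, Spearman's coefficient of partner levels 0.0138 and of overlap with level −0.35. With 10 reads in each library the median was 1.098 and Spearman's coefficient of overlap with level −0.37, without a filter Spearman's coefficient of partner levels was 0.0071, and with the larger pseudocount the median was 1.088. Other alternatives were added after the data were seen: coding exons (Spearman's coefficient of overlap with level −0.25) and overlaps under 1000 nt (−0.17).

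Leaving out each library in turn, between 667 and 734 members rose, between 321 and 462 partner ratios changed, and the median log2 ratio lay between 1.05 and 1.14. Spearman's coefficient lay between 0.0011 and 0.0052 for partner levels, 0.028 and 0.042 for partner ratios, −0.372 and −0.369 for overlap with level, and 0.016 and 0.029 for overlap with ratio. Values near 0 took either sign for *rpp202* (−0.18 to 0.13), *rpe1* (−0.0251 to 0.0586), *ssc1* (−0.0762 to 0.0581) and the partner ratio of *ams1* and *dhd1* (−0.12 to 0.17). The labels give both genotypes replicate numbers 1 and 2 without saying that a number marks a batch. Deviations of same-numbered libraries correlated at 0.31 over 1178 members. With the replicate number as a block, 697 members rose and 458 partner ratios changed. No member fell with the block, and relative to the median mRNA 48 rose and 62 fell, the same counts as without it.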
